A study of Mus musculus with 8 samples.

Results

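The genes described here encode the proteins of the cytosolic ribosome. They were taken from the array's annotation by name: every probe set whose only gene symbol began with Rps or Rpl and a digit was a member, and the kinases named Rps6k were left out. This gave 97 probe sets for 46 genes, out of 22626 probe sets without the array's controls, of which 20380 carried a single symbol for 12393 genes in all. Small-subunit symbols (Rps) accounted for 53 probe sets of 22 genes and large-subunit symbols (Rpl) for 44 probe sets of 24 genes. A further 101 probe sets carry a ribosomal symbol among several symbols. They cannot be given to one gene and were not members. The members are therefore an incomplete set of the ribosome's proteins.

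Ribosomal proteins assemble with ribosomal RNA in the nucleolus into a small subunit, which decodes the messenger RNA, and a large subunit, which joins the amino acids. Each protein is needed in equal number, and their messenger RNAs are short and among the most abundant of any cell. Most of these messengers begin with a run of pyrimidines, the terminal oligopyrimidine (TOP) tract, through which nutrient signalling by the kinase complex mTORC1 adjusts their translation. The liver, which secretes most plasma proteins, carries a high load of ribosomes.

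The RNA came from livers of 8 mice, 1 array per mouse, in 4 groups of 2. Every mouse was a low density lipoprotein receptor null animal on the C57B6 background, 8 months old, fed a Western diet for 12 weeks. All had been given an adeno-associated virus (AAV2.8) at 10 weeks of age. Its insert was driven by the human promoter of thyroxine binding globulin, which is specific to liver, and coded for GFP in 2 groups and for human LXRα, a nuclear receptor for oxysterols, in the other two. One group of each transgene then received T0901317, a synthetic agonist of the liver X receptors, at 5 mg/kg by intraperitoneal injection for 3 days, and the other received vehicle, so each group is named by its transgene and its injection. The labels name the mouse as the source of each sample, and with 2 arrays per group every p-value below measures only the spread between these samples.

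Signals of the array's control probe sets went with the agonist. The ratio of 3' to 5' signal of the β-actin control, which is high when 5' sequence is poorly represented, was 2.21 and 2.08 in GFP vehicle livers and 2.61 and 3.08 in LXRα vehicle livers. With the agonist it reached 7.56 and 11.0 in GFP livers, and 2.75 and 36.3 in LXRα livers. Replicate 1 of LXRα T0901317 is called the lower-ratio T0901317 array here, and the remaining 3 are the arrays of higher ratio. The lower-ratio array lay within the vehicle range for β-actin only. Its Gapdh ratio of 1.27 exceeded the vehicle range of 1.06 to 1.16. Its 18S ribosomal RNA control signal of 45.3 lay below the vehicle range of 245 to 638. Its pyruvate carboxylase ratio of 26.4 exceeded the vehicle range of 4.75 to 11.2. The ratio of dap, a bacterial control sequence, was 1.67 to 2.20 on vehicle arrays. With T0901317 it was 4.60 and 9.97 in GFP and 2.86 and 21.8 in LXRα livers. Whether these controls reflect the liver RNA or its handling was not tested. Liver identity was clear in every array, with a summed intensity of 11 hepatocyte marker probe sets between 143858 and 187404.

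Promoter sequence was read for the members because the pyrimidine run at the start is the shared feature of this gene class. RefSeq on GRCm38.p6 gave a window of 250 bases before to 50 bases from the gene start for 39 of the 46 genes. A run was counted as a C followed by at least 5 more C or T bases, starting between 20 bases before and 30 bases from the gene start. Such a run was present in 27 of the 39 genes (69.2%), against 34.2% of 27025 genes with a window. The letters of an ETS factor core, CCGGAAG on either strand of the 300 bases, occurred in 19 (48.7%), against 9.14% of all. Those of a YY1 core, AAGATGGC, occurred in 4 (10.3%, against 2.87%), those of a GC box, GGGCGG, in 20 (51.3%, against 35.9%) and those of a TATA box, TATAAA, in 5 (12.8%, against 14.2%). A match of letters is a description and not a mapped start or binding site. The windows below run from 20 bases before to 30 bases from the start, 5′ to 3′ on the gene's own strand, with the run in capitals. They are shown for the members on which the later results turn, Rps6, Rpl38, Rps28 and Rpl7l1, beside Rpl35 and Rpl27a, whose runs are long.
Rps6 (chr4:86857338-86857387, minus strand): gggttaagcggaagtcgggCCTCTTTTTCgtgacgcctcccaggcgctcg
Rpl38 (chr11:114668560-114668609, plus strand): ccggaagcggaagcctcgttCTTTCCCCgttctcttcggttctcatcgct
Rpl35 (chr2:39005102-39005151, minus strand): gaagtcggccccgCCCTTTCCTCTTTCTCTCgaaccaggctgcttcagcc
Rpl27a (chr7:109519175-109519224, plus strand): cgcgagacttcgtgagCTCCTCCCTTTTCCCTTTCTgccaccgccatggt
Rps28 (chr17:33824533-33824582, minus strand): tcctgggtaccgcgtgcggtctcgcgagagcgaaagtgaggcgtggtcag
Rpl7l1 (chr17:46782627-46782676, minus strand): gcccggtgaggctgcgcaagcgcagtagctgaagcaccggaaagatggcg
The run of Rps6 is 10 bases long, that of Rpl38 8, that of Rpl35 18 and that of Rpl27a 20, and the windows of Rps28 and Rpl7l1 hold none. Among tested genes, each by 1 probe set, the median log2 difference between T0901317 and vehicle was 0.09 for the 23 with a run and 0.18 for the 11 without. Some of these probe sets were dim, such as those of Rps24 with a run and Rpl41 without, at mean log2 levels of 4.56 and 3.43.

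The members were bright on every array. Their median of the mean log2 intensity was 10.6, against 5.71 for all probe sets tested, and 61 of the 86 tested members (70.9%) lay above the 90th percentile of all. Tested here means a mean log2 intensity over the 8 arrays above the 30th percentile, after values under 7.50 had been raised to that floor. The rule kept 86 member probe sets of 41 genes among 15838. The median log2 intensity of the 86 was 10.32 and 10.96 on the GFP vehicle arrays, 10.39 and 10.46 on the LXRα vehicle arrays, 10.60 and 10.63 on the GFP T0901317 arrays, and 10.91 and 10.60 on the LXRα T0901317 arrays. The highest of these medians belonged to a vehicle array, GFP vehicle replicate 2, and the vehicle and T0901317 arrays overlapped.

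**Figure D1:**
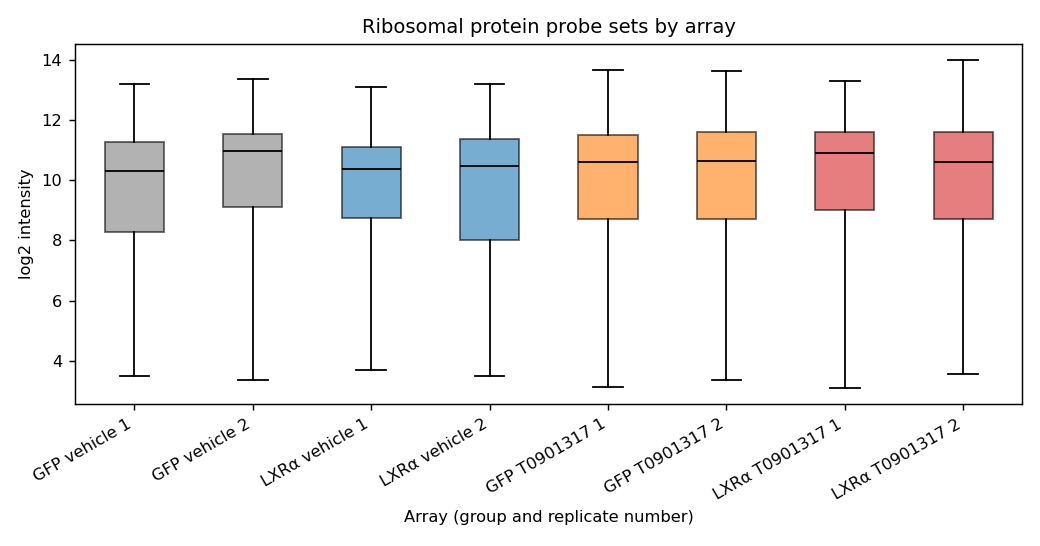
Log2 intensity of the 86 tested ribosomal protein probe sets on each array, ordered by group. Boxes span the quartiles with the median as a line and whiskers reach the lowest and highest probe set, and the medians lie between 10.32 (GFP vehicle 1) and 10.96 (GFP vehicle 2).

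The GFP vehicle arrays differed from each other more in these genes than in others. The median absolute log2 difference between their replicates was 0.366 for members and 0.185 for all probe sets, and replicate 2 was the higher in 69 of 86 members. In the other groups members spread about as much as all probe sets or less, with 0.187 against 0.220 for GFP T0901317, 0.220 against 0.189 for LXRα vehicle and 0.250 against 0.325 for LXRα T0901317. Members were brighter than most probe sets, and bright probe sets spread more. At a mean log2 level of at least 8 the GFP vehicle values were 0.441 for members and 0.304 for all. At that level members spread less than all in the other groups, with 0.265 against 0.305 for LXRα vehicle. Rps3, a small-subunit protein at the messenger RNA entry channel, showed the gap between the GFP vehicle arrays. Its intensities were 1434 and 3042 in GFP vehicle, 1821 and 1289 in LXRα vehicle, 1704 and 2062 in GFP T0901317, and 2148 and 1791 in LXRα T0901317 livers. Its highest and its second lowest value were thus the GFP vehicle replicates.

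No member passed the test of T0901317 against vehicle averaged over both transgenes (limma, adjusted p under 0.05, 0 of 86), while 0.568% of all probe sets did. At an unadjusted p under 0.05 there were 23 members, or 26.7%, against 23.2% of all probe sets. Of these 20 were higher after T0901317 (12.7% of all probe sets were) and 3 lower (10.5% of all). The members' median log2 difference was 0.18, with 58 higher and 28 lower, against -0.04 for all probe sets, of which 45.7% were higher. From the spread of the members' array medians within groups, the standard error for this comparison was also 0.18. The counts are of probe sets that share these 8 arrays. The median was 0.19 for 42 probe sets of the small subunit, 0.16 for 36 of the large subunit and 0.02 for 8 of paralogues and a pseudogene. The 4 T0901317 arrays all lay above the 4 vehicle arrays for 11 members, when 8.2% of all probe sets did so, and all below for 4, when 8.44% did.

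**Figure D2:**
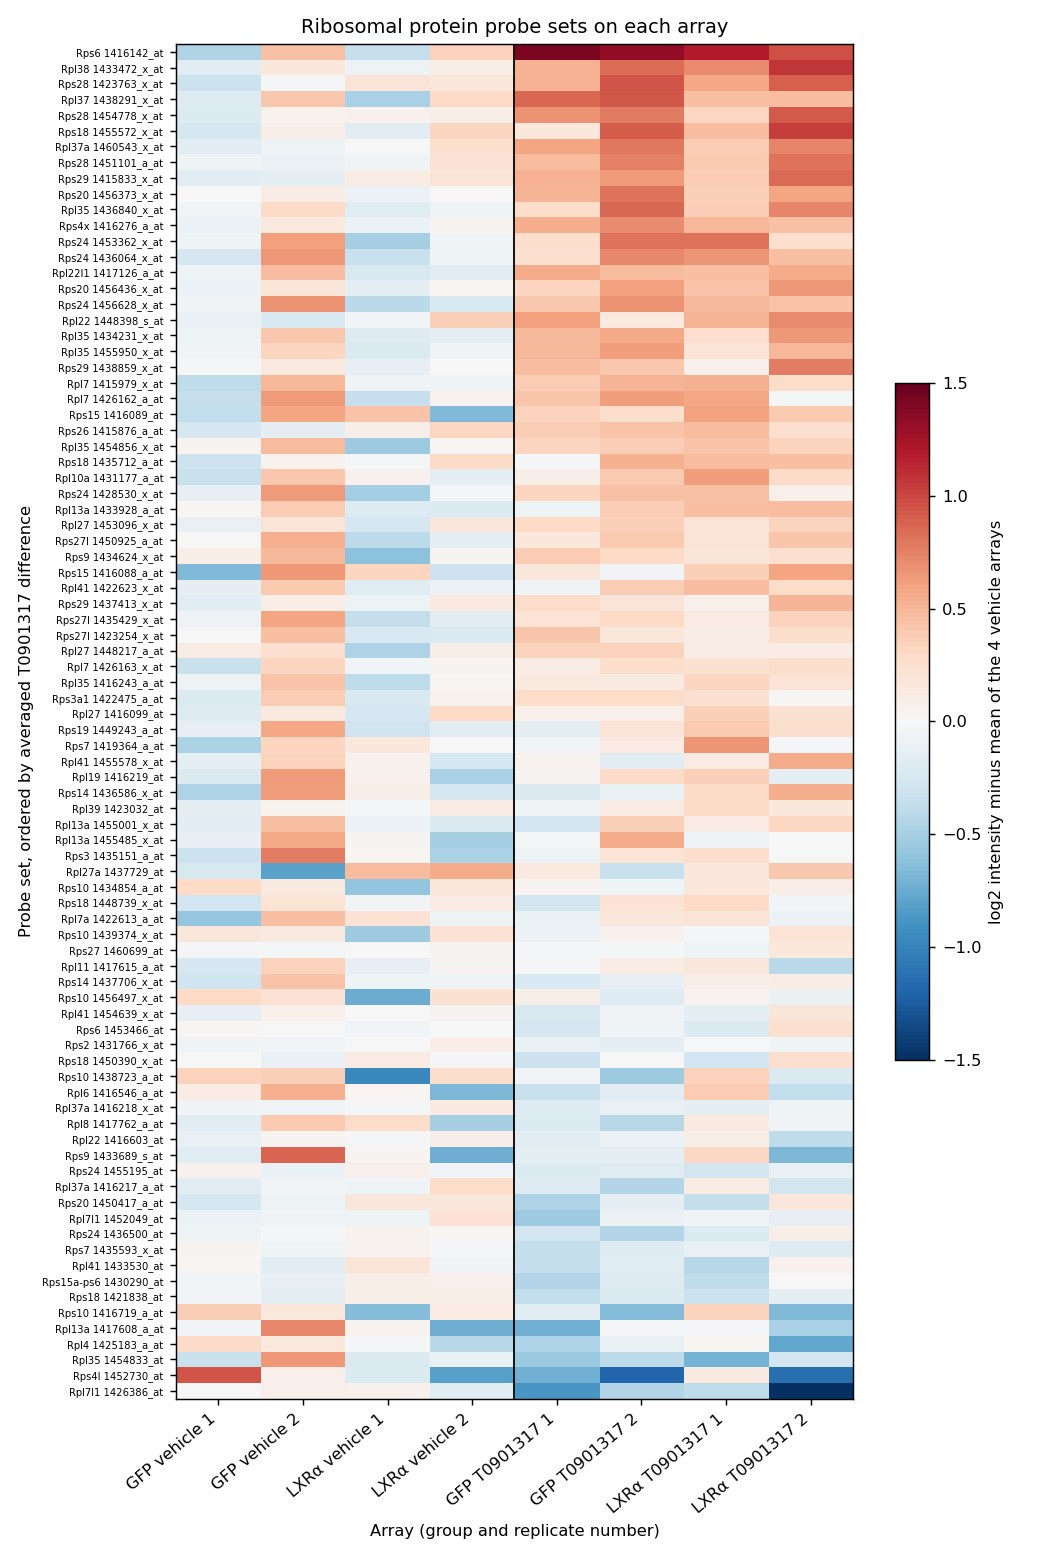
Each row is 1 of the 86 tested probe sets, ordered by the averaged T0901317 difference, and each column an array; colour gives log2 intensity minus the mean of the 4 vehicle arrays, with values past the ends of the scale drawn in the end colours. The upper rows, from Rps6 down, are red on all 4 T0901317 arrays, GFP vehicle replicate 2 is red over many middle rows, and Rpl7l1 at the bottom is darkest on LXRα T0901317 replicate 2.

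Rps6, the small-subunit protein phosphorylated by S6 kinases downstream of mTORC1, had the largest averaged difference. Its probe set 1416142_at gave intensities of 21.6 and 39.9 in GFP vehicle and 23.2 and 37.4 in LXRα vehicle livers. After T0901317 it gave 78.3 and 73.8 with GFP and 66.9 and 57.4 with LXRα, so that all 4 agonist-treated livers lay above all 4 vehicle livers. The log2 difference was 1.22 (SE 0.25), a 2.34-fold change that did not pass (limma adjusted p = 0.0763). This signal was dim for a ribosomal protein, and the second probe set, 1453466_at, gave 12.3 to 17.3 on the 8 arrays with a difference of -0.07 (SE 0.12).

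Rps28 and Rps29 are small proteins of the small subunit's head, the latter a zinc-binding one, and all 3 probe sets of each were higher after the agonist on average. Probe set 1454778_x_at of Rps28 gave 3814 and 4564 in GFP vehicle, 4602 and 4687 in LXRα vehicle, 7043 and 7549 in GFP T0901317, and 5448 and 8307 in LXRα T0901317 livers. Its 4 T0901317 arrays lay above every vehicle array, the lower-ratio one by the least. The averaged log2 differences of the 3 Rps28 probe sets were 0.74 (SE 0.16, adjusted p = 0.0875), 0.67 (SE 0.17, adjusted p = 0.111) and 0.61 (SE 0.16, adjusted p = 0.111). For Rps29, probe set 1415833_x_at gave 2119 and 2183 in GFP vehicle, 2587 and 2739 in LXRα vehicle, 3438 and 3737 in GFP T0901317, and 3105 and 4326 in LXRα T0901317 livers, again without overlap. Probe set 1438859_x_at gave 9429 and 10534, 8791 and 9475, 13125 and 12669, and 10018 and 16209 in the same order. In this one the lower-ratio T0901317 array fell inside the vehicle range. The Rps29 differences were 0.60 (SE 0.16), 0.43 (SE 0.17) and, for 1437413_x_at, 0.26 (SE 0.16), with limma adjusted p from 0.113 to 0.326.

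Rps20 and Rps4x, further proteins of the small subunit, the second encoded on the X chromosome, also separated the treatments without passing the test. Rps4x gave 2482 and 2914 in GFP vehicle, 2478 and 2708 in LXRα vehicle, 3845 and 4321 in GFP T0901317, and 3722 and 3568 in LXRα T0901317 livers. The difference was 0.55 on the log2 scale (SE 0.14, limma adjusted p = 0.107), and the lower-ratio array was as high as its partner. For Rps20 probe set 1456373_x_at the vehicle arrays gave 3110 to 3569 and the T0901317 arrays 4231 to 5817, which is 0.57 apart on the log2 scale (SE 0.14, adjusted p = 0.107). A dim probe set of the same gene, 1450417_a_at, gave 9.73 to 15.1 on the 8 arrays and a difference of -0.20 (SE 0.14). Rps18 and Rps24 each had a dim probe set among the lower members of smallest p, at -0.26 (SE 0.09) for 1421838_at and -0.19 (SE 0.09) for 1455195_at, with adjusted p of 0.168 and 0.236. The second dim one of Rps24, 1436500_at, was at -0.21, and the other probe sets of these genes reached up to 0.64 and 0.54.

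In the large subunit, Rpl38, a small protein whose loss causes a tail and skeletal defect in mice, was the member of smallest p. It gave 2266 and 2818 in GFP vehicle, 2396 and 2694 in LXRα vehicle, 3623 and 4536 in GFP T0901317, and 4147 and 5307 in LXRα T0901317 livers. Both transgene groups thus showed the separation, and the log2 difference was 0.78 (SE 0.17, 1.72-fold, limma adjusted p = 0.0822). Rpl37a, a zinc-binding protein, spanned 3782 to 4967 with vehicle and 5471 to 7249 with T0901317 for 1460543_x_at. The log2 difference was 0.62 (SE 0.15, adjusted p = 0.0970). Its probe set 1416217_a_at gave 3134 to 4282 and 2594 to 3843, a difference of -0.20 (SE 0.17). Rpl37 gave 165 and 250, and 135 and 230, in GFP and LXRα vehicle livers, against 345 and 360, and 258 and 261, after the agonist. Its difference was 0.68 on the log2 scale (SE 0.23, adjusted p = 0.168).

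Other large-subunit members differed less. Rpl35, at the exit of the nascent peptide tunnel, had 5 bright probe sets with log2 differences of 0.20 to 0.56 and a dim one, 1454833_at, at -0.48 (SE 0.22, limma adjusted p = 0.230). Rpl4, which lines that tunnel, gave 3092 and 2837 in GFP vehicle, 2499 and 1905 in LXRα vehicle, 1851 and 2350 in GFP T0901317, and 2585 and 1486 in LXRα T0901317 livers, with a difference of -0.33 (SE 0.22). Of the members known for roles outside the ribosome, Rpl11, which binds the p53 regulator Mdm2, differed by -0.03 (SE 0.21). Rps19, the gene first linked to Diamond-Blackfan anaemia, differed by 0.18 (SE 0.20) and Rps3 by 0.10 (SE 0.27). Rps14, whose loss is linked to a myelodysplastic syndrome, differed by 0.13 and -0.04 in its pair of probe sets. Rpl13a, also a part of an interferon-controlled translation inhibitor, had 4 probe sets between -0.31 and 0.30. Rpl41, the smallest ribosomal protein, had 4 probe sets between -0.22 and 0.26. These 7 genes, Rps6 included, had a median of 0.12 over 15 probe sets, against -0.04 for all probe sets.

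Paralogues differed in direction. Rpl7l1, a paralogue of Rpl7, had the lowest averaged difference of all members: probe set 1426386_at gave 110 and 116 in GFP vehicle, 115 and 98.4 in LXRα vehicle, 59.8 and 80.6 in GFP T0901317, and 84.5 and 37.8 in LXRα T0901317 livers. All T0901317 arrays lay below all vehicle arrays, and the log2 difference was -0.81 (SE 0.27, limma adjusted p = 0.163). Its second probe set, 1452049_at, gave 98.7 to 168 with a difference of -0.20 (SE 0.17). Rps4l, a paralogue of Rps4x, gave 140 and 76.8 in GFP vehicle, 63.2 and 41.3 in LXRα vehicle, 44.3 and 32.0 in GFP T0901317, and 80.0 and 33.2 in LXRα T0901317 livers. The groups overlapped, with a difference of -0.72 (SE 0.35, adjusted p = 0.244). Rpl22l1, a paralogue of Rpl22, stood higher at 0.51 (SE 0.17, adjusted p = 0.170), with 547 to 889 on vehicle and 876 to 946 on T0901317 arrays. Rps27l, a p53-induced paralogue of Rps27, had 3 probe sets at 0.24 to 0.29. The pseudogene Rps15a-ps6, dim at 8.84 to 12.8, differed by -0.25 (SE 0.11, adjusted p = 0.211).

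Within each transgene no member passed either. In GFP livers limma called 0 of 86 members and 0% of all probe sets, and 12 members had an unadjusted p under 0.05 (14.0%, against 13.2% of all). The members' median log2 difference was 0.03, with 47 higher, and it ran from -0.15 without GFP vehicle replicate 1 to 0.29 without GFP vehicle replicate 2. In LXRα livers limma called 0 of 86 against 0.0253% of all, with 14 at an unadjusted p under 0.05 (16.3%, against 13.2% of all). Here the median was 0.33, with 66 higher and 20 lower, against -0.05 for all. The standard error from the spread of the members' array medians within groups was 0.25 for either transgene. Rps6 differed by 1.37 (SE 0.35, adjusted p = 0.211) in GFP and by 1.07 (SE 0.35, adjusted p = 0.293) in LXRα livers, and Rpl38 by 0.68 (SE 0.24) and 0.89 (SE 0.24). Rps28 probe set 1423763_x_at differed by 0.91 (SE 0.23) and 0.56 (SE 0.23), and Rpl7l1 probe set 1426386_at by -0.70 (SE 0.38) and -0.91 (SE 0.38). The 2 comparisons share no array, but they share 1 estimate of the spread. These members were picked by the averaged effect, the mean of both, so their equal sign in both is no separate result.

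The test of the difference between these effects, the interaction, called 0 of 86 members with limma (0.00631% of all probe sets) and had 0 at an unadjusted p under 0.05 (4.77% of all). Rps4l had the largest interaction, 1.47 on the log2 scale (SE 0.69, adjusted p = 1.00), from -1.46 (SE 0.49) in GFP and 0.01 (SE 0.49) in LXRα livers. Next by p came Rpl13a probe set 1433928_a_at at 0.71 (SE 0.35) and Rps19 at 0.75 (SE 0.41), although Rps10 probe set 1438723_a_at had a larger value of 1.05 (SE 0.60). The members' interaction median was 0.14, against -0.02 for all. It was 0.35 without GFP vehicle replicate 1 and 0.018 without GFP vehicle replicate 2.

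The transgene itself moved no member past the test. LXRα against GFP in vehicle livers called 0 of 86 members with limma, against 0.00631% of all, and 1 member had an unadjusted p under 0.05 (5.15% of all did). That member was Rpl27a, whose probe set 1437729_at gave 148 and 100 in GFP and 243 and 257 in LXRα vehicle livers, which is 1.04 apart on the log2 scale (SE 0.28, adjusted p = 0.767). Among lower members the smallest p belonged to Rps24 probe set 1456628_x_at, which differed by -0.62 (SE 0.29). Rps9 probe set 1434624_x_at at -0.58 (SE 0.27) and Rps4l at -1.02 (SE 0.49) followed. The median was -0.11 for members and 0.05 for all. It was -0.38 without GFP vehicle replicate 1 and 0.06 without GFP vehicle replicate 2, so its sign depended on which of those mice was kept. After T0901317 the same comparison called 0 of 86 with limma (0% of all), with 0 members at an unadjusted p under 0.05 (2.24% of all) and a median of 0.06. That median was -0.013 without GFP T0901317 replicate 1 and 0.12 without GFP T0901317 replicate 2. Rps14 probe set 1436586_x_at had 0.57 (SE 0.37) and Rpl37 -0.44 (SE 0.33).

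Some members followed the β-actin 3'/5' ratio. A line of log2 intensity on the log2 ratio over the 8 arrays called 5 of 86 members with limma, 4 rising and 1 falling, while 7.7% of all probe sets were called, 2.87% rising and 4.84% falling. The members' share, at 5.81%, did not stand above that background. Among all called probe sets 454 rose and 766 fell with the ratio. The 4 that rose belonged to Rps28 and Rps29. Rps28 rose by 0.26 on the log2 scale per doubling of the ratio for 1454778_x_at (SE 0.053, adjusted p = 0.0204) and by 0.22 for 1451101_a_at (adjusted p = 0.0337). Rps29 rose by 0.19 for 1438859_x_at (adjusted p = 0.0263) and by 0.23 for 1415833_x_at (adjusted p = 0.0337). Rpl7l1 probe set 1426386_at fell by 0.36 per doubling (SE 0.063, adjusted p = 0.0110), and of the intensities given above its lowest, 37.8, came from the array with the ratio of 36.3.

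**Figure D3:**
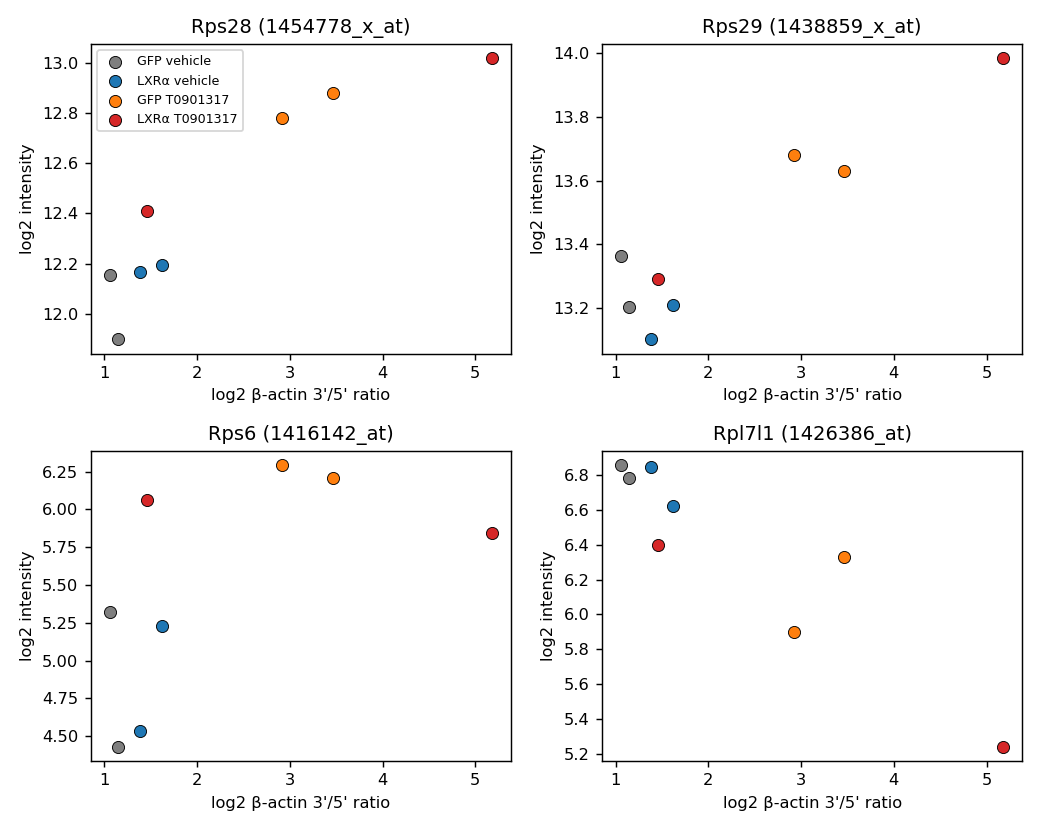
Log2 intensity (vertical axis, own scale in each panel) against the log2 β-actin 3'/5' ratio (horizontal axis) for probe sets of Rps28, Rps29, Rps6 and Rpl7l1, 1 point per array, coloured by group. Rps28 and Rps29 climb with the ratio and Rpl7l1 descends, whereas the lower-ratio T0901317 array of Rps6, at 6.06, lies among the other T0901317 arrays and above all vehicle arrays.

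Members that did not pass on this axis lay on both sides. Rps4l had a slope of -0.38 (limma adjusted p = 0.0769), Rpl4 of -0.20 (adjusted p = 0.101) and Rps10 probe set 1416719_a_at of -0.21 (adjusted p = 0.175). Rps6 had a slope of 0.29 with a wide error (SE 0.14, adjusted p = 0.263). The members' median slope was 0.045 per doubling, with 58 rising and 28 falling by sign, against 0.00091 for all. The slope rested on few arrays. Without LXRα T0901317 replicate 2 no member was called, when 2.32% of all probe sets were. Without LXRα T0901317 replicate 1 there were 9 (10.5%, against 7.90% of all), and without GFP T0901317 replicate 2 there was 1. There were 2 without GFP vehicle replicate 1 or GFP T0901317 replicate 1, and 3 without GFP vehicle replicate 2 or LXRα vehicle replicate 1. In these last 5 settings 4.75% to 6.14% of all probe sets were called, so the background moved as well. Without the 3 higher-ratio arrays there were 0 members, 0 of all probe sets, and the median slope was -0.16, over a ratio range of 2.08 to 3.08 only. The 18S control signal picked partly different members. This signal split the treatments completely: its lowest value with vehicle was 245 and its highest with the agonist was 45.3. Following this signal and differing after T0901317 therefore cannot be told apart here. On the 18S signal in place of the β-actin ratio limma called 4 members (4.65%, against 2.19% of all), each rising as the signal fell. Per halving of that signal Rps6 rose by 0.29 (adjusted p = 0.0418), Rps28 by 0.19 for 1423763_x_at (adjusted p = 0.0413) and 0.17 for 1454778_x_at (adjusted p = 0.0476), and Rps20 probe set 1456373_x_at by 0.14 (adjusted p = 0.0493). Those called on the β-actin ratio were otherwise not called here, with adjusted p of 0.0720 for Rps28 probe set 1451101_a_at, 0.0815 and 0.160 for Rps29 and 0.174 for Rpl7l1.

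The β-actin ratio and the agonist largely coincide, and the lower-ratio T0901317 array is the one sample in which they part. Its Gapdh, pyruvate carboxylase, dap and 18S values nevertheless lay outside the vehicle range, on the side of the other T0901317 arrays. Of the 17 members for which all 3 higher-ratio arrays lay above every vehicle array, the lower-ratio array also lay above for 11 (64.7%). Of all probe sets 13% had those 3 arrays above, and the lower-ratio array joined them in 63.1% of these. Of the 5 members for which they lay below, it lay below for 4. Of all probe sets 13.9% were of that kind, with the lower-ratio array below in 60.9% of them. Over all 86 members the lower-ratio array was above every vehicle array for 28, below for 14 and within the vehicle range for 44. Among all probe sets it was above for 25.1% and below for 37.8%. Rps6, Rps4x, Rpl38 and Rpl22 probe set 1448398_s_at were among those above, and Rps29 probe set 1438859_x_at and Rpl22l1 were within.

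With the ratio as a covariate beside the 4 group means, the averaged T0901317 difference called 0 of 86 members (limma; 0.0253% of all), and 13 had an unadjusted p under 0.05, 5 higher and 8 lower. Of all probe sets 25% had such a p, 8.35% higher and 16.6% lower. The members' median was 0.21, close to the 0.18 without the covariate, against -0.04 for all. It became -0.55 without LXRα T0901317 replicate 1 and 0.0047 without replicate 2 of that group, so this estimate depended on those arrays. Rps6 kept a difference of 1.33 (SE 0.37, adjusted p = 0.123) and Rps4x of 0.56 (SE 0.19, adjusted p = 0.155). Rps29 went from 0.43 to 0.07 (SE 0.17) for 1438859_x_at and from 0.60 to 0.34 (SE 0.17) for 1415833_x_at, Rps28 from 0.67 to 0.35 (SE 0.18) for 1454778_x_at, and Rpl7l1 from -0.81 to -0.24 (SE 0.24). The ratio's own coefficient in that fit called 0 of 86 members with limma (0.979% of all), with 8 at an unadjusted p under 0.05 (9.30%, against 20.3% of all).

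Leaving out the lower-ratio array moved the count of averaged calls most. Without it limma called 8 of the 86 members (9.30%), near the 9.51% of all probe sets called in that fit: Rps28 (3 probe sets), Rps29 (2), Rpl38 and Rpl37a rose and Rpl7l1 fell. The log2 differences were then 0.72 for Rps29 probe set 1415833_x_at, 0.87 for Rpl38, 0.71 for Rpl37a and -1.10 for Rpl7l1. Rps6 was not among them, with an adjusted p of at least 0.0649 under every array left out.

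Probe sets of the same gene often disagreed. Of 20 genes with at least 2 tested probe sets, 13 had averaged differences of both signs, and the widest ranges were 1.29 log2 units for Rps6, 1.05 for Rpl35, 0.89 for Rps18, 0.82 for Rpl37a and 0.77 for Rps20. In each of these 5 genes except Rpl37a the lowest value came from a probe set with a mean log2 level under 4, near the floor. Over the members, Spearman's rho between mean level and averaged difference was 0.45 (n = 86), against 0.26 for all probe sets, as a description of probe sets that share these 8 arrays. The 66 members with a mean log2 level of at least 8, a level chosen after the values were seen, had a median difference of 0.25, and the 20 below it -0.16. All 2978 probe sets at or above 8 had a median of 0.11. Probe sets ending in x_at, which can bind several related transcripts, had a median of 0.29 (39 probe sets) against 0.06 for the other 47. Ribosomal proteins have many processed pseudogenes, so an x_at signal can belong to more than its named gene. With 1 probe set per gene the median was 0.10 (41 genes). As x_at probe sets were used last, some genes stood by dim ones. Those of Rps20, Rpl41 and Rps24 had mean log2 levels of 3.65, 3.43 and 4.56, although each gene also had a bright one.

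A group of genes for very short proteins, Rpl37, Rpl37a, Rpl38, Rpl39, Rpl41, Rps21, Rps27, Rps27l, Rps28 and Rps29, was set apart after the values were seen and is described without a test. Its 14 probe sets with a mean log2 level of at least 8, from 6 genes, had a median T0901317 difference of 0.36 and a median slope of 0.16, with 13 of 14 higher. The other 52 members of that level had medians of 0.20 and 0.04. The 4 probe sets called as rising with the β-actin ratio are of Rps28 and Rps29, which were put in this group with those values known. Their membership and the group's higher medians are therefore no separate result on short proteins. Transcript lengths were not used here.

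Ribosomal proteins whose symbols fall outside the naming rule varied as widely. Rplp0, the stalk protein of the large subunit, fell by 0.48 on the log2 scale per doubling of the β-actin ratio (SE 0.078, limma adjusted p = 0.00753). It gave 7351 and 6136 in GFP vehicle, 5155 and 6616 in LXRα vehicle, 3333 and 2209 in GFP T0901317, and 7802 and 2114 in LXRα T0901317 livers. The lower-ratio T0901317 array was thus the highest of the 8, and the averaged T0901317 difference of -0.92 (SE 0.40, adjusted p = 0.225) did not pass. Rpsa, Fau and Rplp2 had averaged T0901317 differences of 0.45, 0.34 and 0.31 that did not pass.

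Related gene sets give the setting. Translation factors and other genes of the TOP class (49 probe sets, 20 genes) had a median averaged difference of 0.26, above that of the ribosomal proteins, and limma called 0 of them in that comparison, with 3 falling with the ratio (4.84% of all probe sets fell), 2 of Eif3a and 1 of Eif4b, both initiation factor genes. Ribosome assembly genes (47 probe sets, 30 genes) had a median of 0.01. In the averaged comparison limma called 1 of these 47 probe sets (2.13%, against 0.568% of all). It belonged to Ubtf, which activates ribosomal RNA transcription, and was lower after T0901317, at -0.80 (SE 0.087, adjusted p = 0.0341). With the ratio 4 of the 47 fell (8.51%, against 4.84% of all) and 0 rose (2.87% of all did). Ncl, the nucleolar protein nucleolin, fell by 0.80 per doubling of the ratio (SE 0.088, adjusted p = 0.00118), as did Nhp2, Rrp1 and Polr1c by 0.53, 0.38 and 0.37. Mitochondrial ribosomal proteins (111 probe sets, 74 genes) had a median of 0.01, 0 called after T0901317, and 1 rising and 7 falling with the ratio (against 2.87% and 4.84% of all), led by Mrpl49 at -0.50 (SE 0.048, adjusted p = 0.000648).

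**Figure D4:**
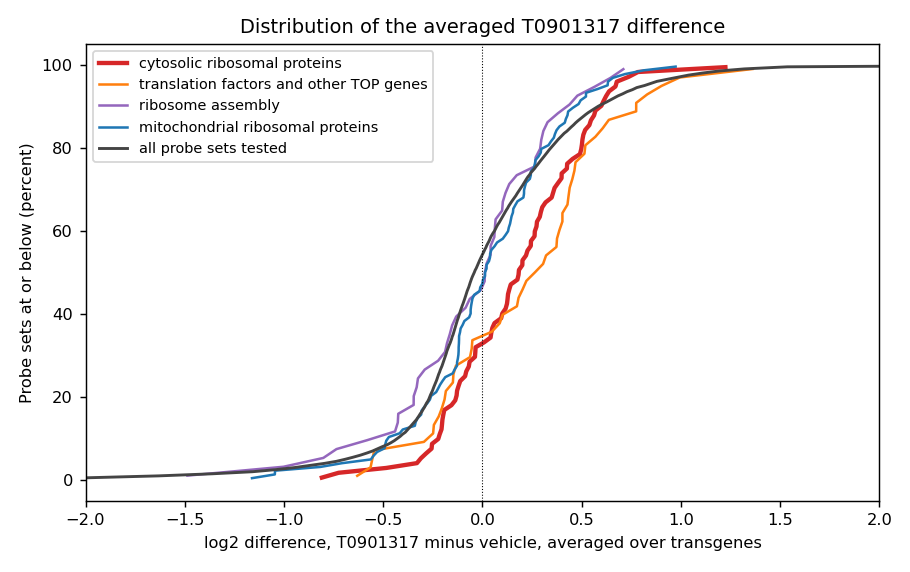
Cumulative share of probe sets (percent, vertical axis) at or below each averaged T0901317 log2 difference (horizontal axis, drawn from -2 to 2) for 4 gene lists and all 15838 probe sets tested. The ribosomal protein curve crosses the middle at 0.18 and that of the TOP class at 0.26, right of all probe sets at -0.04, while ribosome assembly and mitochondrial ribosomal proteins cross at 0.01.

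Levels of cell type markers also varied in these whole livers, in which fewer cells of a type and less RNA per cell cannot be told apart. Of 10 endothelial marker probe sets 8 were higher after T0901317 on average and 2, both of Lyve1, rose, with log2 differences of 2.05 and 1.35 (limma adjusted p = 0.0489 each). Their summed intensity was 867 to 938 in GFP vehicle, 598 to 825 in LXRα vehicle, 984 to 1351 in GFP T0901317 and 1229 to 1343 in LXRα T0901317 livers. Stellate and matrix markers were higher in 11 of 13, with 0 called and sums of 905 to 3307. Macrophage markers were higher in 11 of 16 on average, with 0 called, and differed by transgene. Their sums were 18992 to 19421 in GFP vehicle, 5265 to 12025 in LXRα vehicle, 13530 to 22155 in GFP T0901317 and 14414 to 14695 in LXRα T0901317 livers. After T0901317 their median log2 difference was -0.23 in GFP livers (6 of 16 higher) and 0.87 in LXRα livers (14 of 16 higher), beside 0.03 and 0.33 for the ribosomal proteins. For LXRα against GFP in vehicle livers it was -1.40, with 16 of 16 lower, beside -0.11 for the ribosomal proteins and 0.05 for all probe sets. Of the 16, 9 had an unadjusted p under 0.05 and 0 were called by limma. Of all probe sets 5.15% had such a p and 0.00631% were called. Erythroid marker sums were 354 to 473 on vehicle and 210 to 353 on T0901317 arrays. Lymphocyte sums overlapped, at 96.9 to 110 and 80.0 to 117. So did cholangiocyte sums, at 64.3 to 78.8 and 59.0 to 81.8. The part of all these markers in the ribosomal protein differences was not tested.

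The 11 member probe sets below the level filter were at 3.30 to 13.0 on every array. Those of Rpl12, Rpl14, Rps25, Rpl3l (a muscle paralogue of Rpl3) and Rpl39l (a testis paralogue of Rpl39) were the only ones of their genes. The others belonged to Rpl27a, Rps4x, Rps9, Rps10, Rps18 and Rps20, each of which had a brighter probe set or several in the test. Without the filter all 97 were fitted and the averaged comparison called 0 of them, when it called 0.0663% of all 22626 probe sets.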

How the data were processed

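RNA of 8 mouse livers was hybridised to Affymetrix arrays, 1 per sample, and groups were taken from the labels. The authors deposited intensities, linear by their range, with 1 value for each probe set on each array; how probes were summarised and arrays scaled is not given in the sources used here. Of 22690 probe sets, 64 controls were not tested. Intensities were raised to a floor of 7.50 (20th percentile) and log2-transformed; array medians spanned 0.141 log2 units, and the deposited scaling was kept. Probe sets above the 30th percentile of mean log2 intensity, 15838 in all, were fitted with limma 3.58.1 (R 4.3.3) as 4 group means with an intensity trend, sharing 1 spread with 4 residual degrees of freedom. Separate fits took the β-actin 3'/5' ratio, in log2, alone or beside the group means. Benjamini-Hochberg adjustment ran over all 15838, with a call at an adjusted p under 0.05. SE is limma's moderated standard error. The number of arrays limits the precision. Only the averaged comparison and the slope were tried on simulated data. Those data had independent noise in each probe set, so they do not cover shifts shared by an array.

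Members were found by symbol; all 46 matched RefSeq, and updating symbols changed none. Named members were those of smallest p per comparison and direction (6 for the averaged effect, 4 for the slope, 3 otherwise), known non-ribosomal roles, paralogues and the genes whose probe sets differed most. Members, lists and tests were chosen with earlier results of these data known. Where 1 probe set stood for a gene, it was the brightest tested, with x_at ones used last.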

Additional observations from a re-analysis of the deposited data

How the results depend on the processing

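The counts and medians of members were recomputed under quantile normalization, median centring, a lower floor (4.59, the 5th percentile), an offset of 16, a filter at the 50th percentile or none, no trend, robust spread, the compared groups alone, other ratios, a replicate block, fewer probe sets and each array left out. The slope called 5 members (5.81%, against 7.70% of all). This count became 3 with no filter (3.09% against 3.19%) and 8 with the 50th percentile filter (10.4% against 11.7%). It was 2 of 47 without x_at probe sets (4.26%) and 2 of 41 with 1 probe set per gene (4.88%). With probe sets of several symbols added, chosen after seeing the data, it was 9 of 176 (5.11%). Each of these other choices of members stood against the same 7.70% of all. Without the 3 higher-ratio arrays it was 0 (0 of all). In the last the median slope was -0.16 and Rps29 probe set 1438859_x_at turned to -0.17. With the replicate block the slope called 2 (2.33% against 5.67%); same-numbered arrays share only a number, with correlations of -0.14 to 0.25, and the block called no member elsewhere. Without a filter the difference at a given ratio called 1, Rps10 probe set 1436384_at, near the floor. The causes of these changes were not tested. With an array left out, its partner was taken to vary like the other groups. The averaged T0901317 count then ran from 0 to 8, the slope count from 0 to 9, the median in GFP livers from -0.15 to 0.29, the median transgene difference in vehicle livers from -0.38 to 0.064, and the median at a given ratio from -0.55 to 0.32. The averaged median stayed between 0.07 and 0.35. Without the 3 higher-ratio arrays no GFP T0901317 group is left, so the comparisons that use it were not run. Dim probe sets near the floor carry little signal over background.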

Other observations

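Among the 18 large-subunit genes tested with no paralogue, and the 18 of the small subunit, the shares of probe sets with a higher averaged T0901317 level were nearly equal, at 69.4% and 69.0%. Both lay above the 45.7% of all probe sets. At a mean log2 level of at least 8, 78.8% of members were higher, against 60.1% of all probe sets of that level. When the fit also held the β-actin ratio these shares were 89.4% and 67.7%. Translation factors and other TOP genes had 83.7% higher in the same fit, with a median of 0.46 against 0.21 for the ribosomal proteins. In it limma called 0 of both. The ribosomal protein median of that fit depended on single arrays. It was -0.55 without LXRα T0901317 replicate 1 and 0.0047 without replicate 2 of that group. The median log2 level of the TOP genes was 8.61 on LXRα T0901317 replicate 1 and 7.99 to 8.30 on the other arrays.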
